A study of Mus musculus with 19 samples.

Results

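The 10 genes described here are the classical transcriptional targets of YAP: Ctgf, Cyr61, Ankrd1, Amotl1, Amotl2, Amot, Axl, Nuak2, Tgfb2 and F3. They were chosen by name, out of 22367 protein-coding genes in the annotation, and each was given a window made of its gene body and 50 kb on either side. The question was where YAP and TEAD were found by ChIP-seq at these genes in mouse liver, before and after YAP was switched on. Livers came from C57BL/6 mice that all carried ROSA26-rtTA-IRES-EGFP, the doxycycline-dependent activator. WT livers had no YAP transgene and received doxycycline food for 7 days. tetYAP livers carried a doxycycline-inducible, activated YAP mutant, in which a serine that the LATS kinases phosphorylate is replaced, and received the food for 3 days (3d) or 7 days (7d). Per the study's methods, Albumin-Cre directed the induction to hepatocytes, and dissected livers were fixed for TEAD ChIP. For YAP ChIP the methods speak of fixed cells and do not name the cell type. Peaks of hepatocytes and of other liver cells therefore cannot be told apart. The labels do not say whether WT mice also carried Albumin-Cre. Ages were not given in the sources used here, and peak lists hold no expression by which the tissue could be checked. Each of the 6 groups had 3 replicates, except TEAD 7d with 4, and the authors merged the replicates before they called peaks, so 1 list stands for each group and no difference below has a replicate check.

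YAP is a coactivator without a DNA-binding domain of its own. The Hippo pathway, through the LATS kinases, keeps YAP out of the nucleus, and nuclear YAP reaches DNA mainly through the TEAD transcription factors, which recognise the motif CATTCC, which reads GGAATG on the other strand. In many tissues YAP and TEAD act from enhancers far from the promoter, and several targets feed back on the pathway, since angiomotins hold YAP in the cytoplasm and at junctions.

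Each peak is given by its summit, by its pileup (the number of extended fragments over the summit), by its fold enrichment over the control, and by its rank for pileup within its own list, where 1 is the strongest and tied peaks share the better rank. The lists held 5695 (TEAD WT), 36446 (TEAD 3d), 38984 (TEAD 7d), 156 (YAP WT), 110 (YAP 3d) and 1478 (YAP 7d) peaks, from libraries of 34260362 to 55032002 tags after merging. The caller used a fragment length of 400 bp for TEAD WT, 207 bp for TEAD 3d, 206 bp for TEAD 7d and 250 bp for YAP, so pileups of different lists are set side by side below and are not on one scale. Fold enrichment also depends on fragment length and depth, and its list medians were 5.05, 5.44 and 7.30 in TEAD WT, 3d and 7d. Fold enrichments in WT are therefore not on one scale with those at 3d and 7d. Distances are from the summit to the nearest annotated transcription start of the gene, with upstream as negative.

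The sequences below are a choice of summits, made to show sites with YAP, with and without the TEAD motif, beside strong TEAD sites without YAP. Each run is 171 bases of mm9 centred on a summit, written 5′ to 3′ along the strand of the gene, with every match to the TEAD motif, on either strand, in capitals. The first is the Ctgf promoter (chr10:24315059-24315229, + strand), a YAP 7d summit. The second and the third are the intergenic YAP 7d sites past the end of Amotl2 (chr9:102665964-102666134 and chr9:102681878-102682048, + strand). The fourth is the YAP 7d site just past the end of Nuak2 (chr1:134230383-134230553, + strand). The last 2 are TEAD 7d summits without a YAP peak, at the Cyr61 promoter (chr3:145312954-145313124, − strand) and past the end of Ankrd1 (chr19:36185165-36185335, − strand).
Ctgf promoter: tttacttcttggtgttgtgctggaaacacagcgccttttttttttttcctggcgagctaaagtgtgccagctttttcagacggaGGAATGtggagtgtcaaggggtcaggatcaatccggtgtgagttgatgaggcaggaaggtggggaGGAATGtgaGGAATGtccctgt
Amotl2, first intergenic site: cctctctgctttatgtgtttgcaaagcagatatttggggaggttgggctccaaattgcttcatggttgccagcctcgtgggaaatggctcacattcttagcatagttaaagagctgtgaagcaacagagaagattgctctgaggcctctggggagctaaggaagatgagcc
Amotl2, second intergenic site: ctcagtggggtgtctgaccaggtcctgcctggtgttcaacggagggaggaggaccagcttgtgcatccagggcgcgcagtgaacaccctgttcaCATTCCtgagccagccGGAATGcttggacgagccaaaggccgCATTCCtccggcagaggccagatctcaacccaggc
Nuak2, 3′ site: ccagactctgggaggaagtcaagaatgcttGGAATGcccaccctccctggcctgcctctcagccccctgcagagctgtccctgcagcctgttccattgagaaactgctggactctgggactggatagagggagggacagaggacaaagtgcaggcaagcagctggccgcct
Cyr61 promoter: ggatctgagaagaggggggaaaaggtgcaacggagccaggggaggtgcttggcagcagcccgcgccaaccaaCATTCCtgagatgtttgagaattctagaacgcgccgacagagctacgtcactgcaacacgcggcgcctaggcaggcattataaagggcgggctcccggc
Ankrd1, 3′ site: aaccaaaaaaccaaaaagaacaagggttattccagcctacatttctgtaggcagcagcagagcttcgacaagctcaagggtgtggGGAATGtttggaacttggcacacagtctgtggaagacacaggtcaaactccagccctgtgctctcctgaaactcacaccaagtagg
The Ctgf run and the second Amotl2 run each held 3 copies of the motif, and the Nuak2, Cyr61 and Ankrd1 runs held 1 each. The first Amotl2 run held none, although it was the strongest YAP site of all 10 genes by pileup. At summits not printed, a run of the same length held 1 copy at the strongest TEAD 7d peak of Amot, and none at that of Axl or at the YAP 7d peaks of Tgfb2 and F3. The Amotl2 promoter site is not printed because it lies in an annotated UTR.

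YAP was found at 5 of the 10 genes, and in the YAP 7d list alone. In YAP WT and YAP 3d no window held a peak, in lists where 0.210% and 0.264% of all protein-coding genes had one in a window built the same way. In YAP 7d, 12 peaks lay in the windows of Amotl2 (7), Nuak2 (2), Ctgf (1), Tgfb2 (1) and F3 (1). These were 5 of 10 genes, against 10.8% of all protein-coding genes. Cyr61, Ankrd1, Amotl1, Amot and Axl had no YAP peak in their windows. Because the lists hold only peaks that passed the caller's cutoff, the absence of a peak says that none was called, not that YAP was not bound. The 10 windows held 8.99 YAP 7d peaks per Mb, and the main chromosomes, regions far from genes included, 0.548 per Mb. Without Amotl2 the density was 4.11 per Mb.

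**Figure D1:**
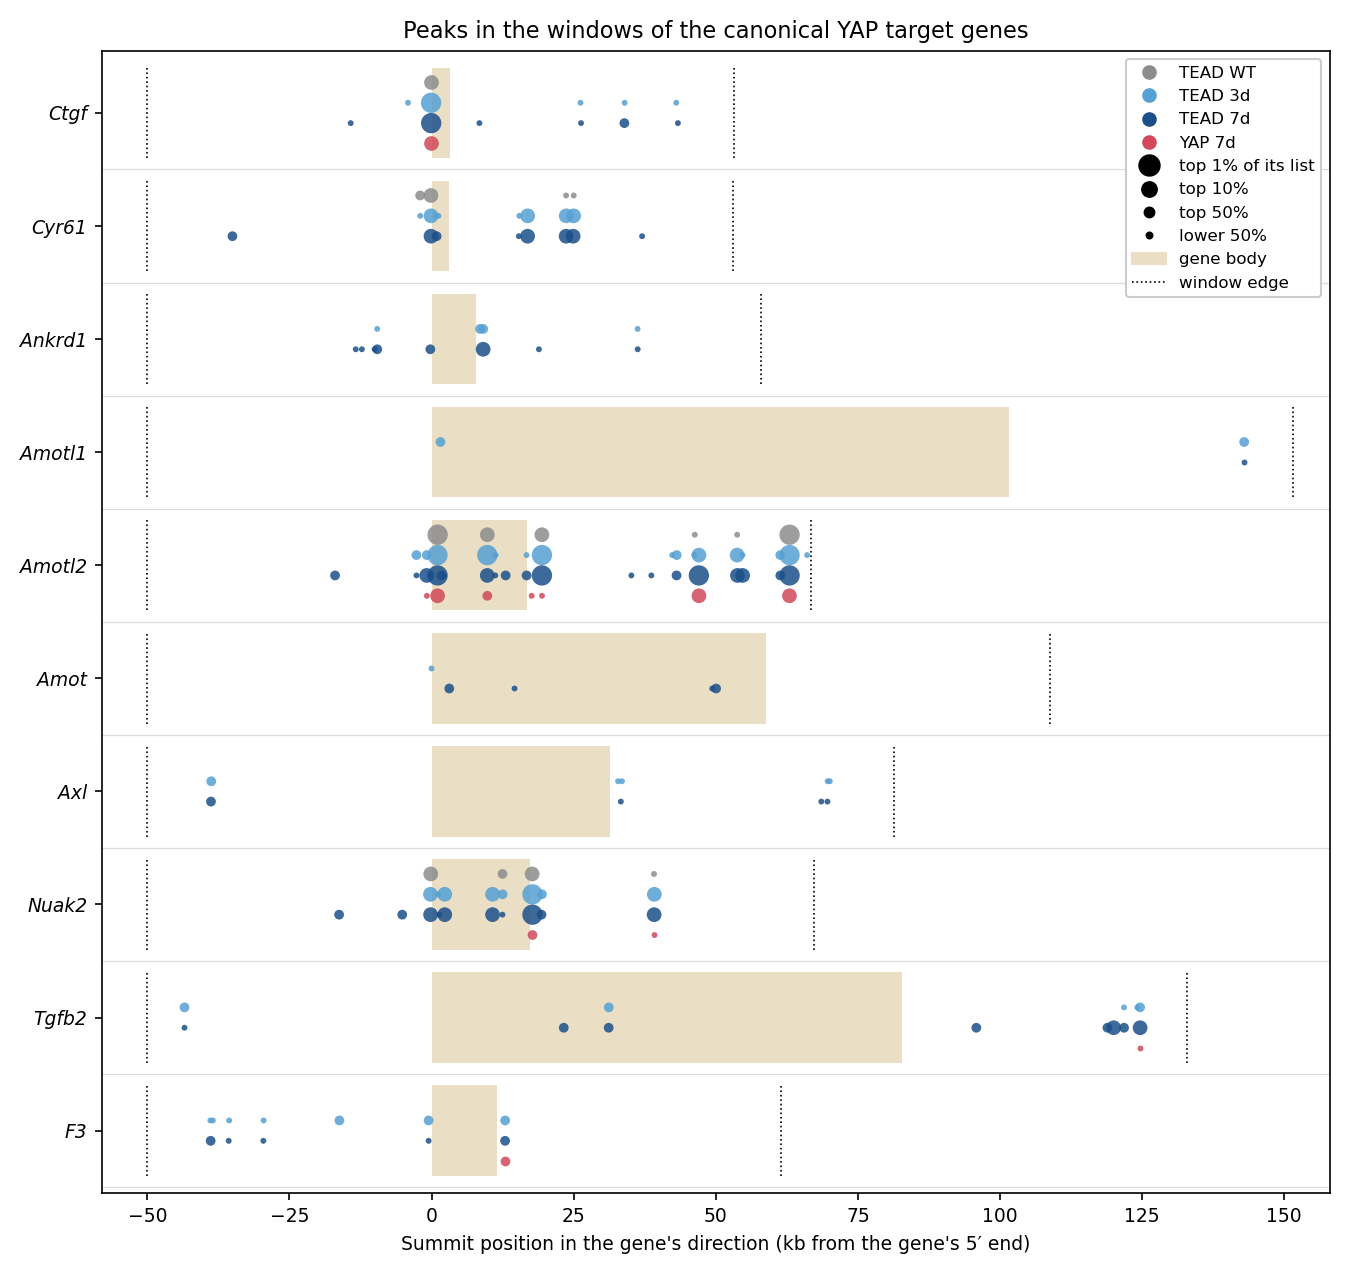
Summit positions of all TEAD and YAP 7d peaks in the 10 windows, in kb from the 5′ end of the gene along its own strand, with 1 row per gene and 1 line of points per list. Point size gives the pileup class within the list, the shaded bar is the gene body and dotted lines are the window edges, and YAP WT and YAP 3d have no point because no peak fell in the windows. Amotl2 carries 7 of the 12 YAP 7d peaks. Past the 3′ end of their gene lie 8 of the 12, several of them at Amotl2, and no share over all genes was computed.

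TEAD was found more widely. In TEAD WT, 15 peaks lay in the windows of only 4 genes, which were Amotl2 (6), Cyr61 (4), Nuak2 (4) and Ctgf (1), while 37.8% of all protein-coding genes had a TEAD WT peak in the window. In TEAD 3d all 10 genes had a peak, with 61 peaks in total, against a background of 75.3%. In TEAD 7d all 10 had one again, with 74 peaks and a background of 76.9%. Read against these backgrounds, the number of genes with a TEAD peak was near that of genes at large, whereas the peaks were denser: 11.2, 45.7 and 55.5 per Mb in TEAD WT, 3d and 7d, against 2.14, 13.7 and 14.7 per Mb over the main chromosomes. Without Amotl2 the 3 densities were 7.39, 37.0 and 44.4 per Mb. The main chromosomes include regions far from genes, so they are not a matched reference for gene windows. Protein-coding windows with as many TEAD 7d peaks or more made up 0.568% for Amotl2 and 10.1% for Nuak2. The share was 17.4% for Cyr61, Ankrd1 and Tgfb2, 29.3% for Ctgf and 36.5% for F3. It was 45.2% for Amot and Axl and 76.9% for Amotl1.

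At promoters, from 2000 bp upstream to 1000 bp downstream of any annotated start, TEAD WT marked Ctgf, Cyr61, Amotl2 and Nuak2, 4 of 10 genes against 8.69% of all protein-coding genes. TEAD 3d marked 6 of 10, adding Amot and F3, against 38.9%. TEAD 7d also marked 6, with Ankrd1 in place of Amot, against 37.6%. A YAP 7d peak lay at the promoter of Ctgf and of Amotl2, 2 of 10 against 1.04%. No promoter of the 10 genes had a peak in YAP WT or YAP 3d, where the backgrounds were 0.0358% and 0.0715%.

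Ctgf encodes a secreted matricellular protein, also called CCN2, that promotes matrix deposition. It had 1 strong site, at its promoter, and only weak peaks elsewhere. The TEAD summit lay 39 bp upstream of the start in WT, 74 bp upstream at 3d and 58 bp upstream at 7d, with pileups of 83, 265 and 253 and fold enrichments of 10.11, 43.5 and 54.84. In rank it stood at 292 of 5695, 62 of 36446 and 93 of 38984. Thus the site was already called without the transgene, and it stood among the strongest of the list at both induced times. Among genes with a promoter peak, Ctgf was at position 130 of 1944 in TEAD WT, 24 of 8694 in TEAD 3d and 21 of 8401 in TEAD 7d, ordered by the best promoter peak. The YAP 7d peak (chr10:24314921-24315384) had a pileup of 48, a fold enrichment of 10.48 and rank 99 of 1478, and its summit was 46 bp from that of TEAD 7d. The annotation places this summit in a non-coding exon of Gm15270, a neighbouring transcript whose exon covers the Ctgf promoter. The other 5 TEAD 7d peaks of the window had pileups from 21 to 34, all at or below rank 18655.

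Cyr61 encodes CCN1, the closest relative of Ctgf in this set. It resembled Ctgf in TEAD but had no YAP peak within 50 kb. Its promoter site lay 99, 83 and 90 bp upstream of the start in TEAD WT, 3d and 7d, with pileups of 87, 171 and 155. The ranks were 251, 424 and 876, so the site stood slightly above that of Ctgf in WT and below it at both induced times. A further site 16.9 kb downstream of the start, past the 3′ end of the gene, was not called in WT and had pileups of 81 at 3d and 149 at 7d, where it ranked 969. Its fold enrichment was 8.19 at 3d and 21.53 at 7d. A pair of intergenic sites at 23.7 and 24.9 kb was called in all 3 TEAD lists, with pileups of 36 and 39 in WT, 91 and 84 at 3d, and 106 and 98 at 7d. A weak WT peak 2001 bp upstream (pileup 40) was called again at 3d (pileup 34) and not at 7d, and its nearest start belonged to Gm17501.

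Amotl2 had the densest binding of the 10 genes. It encodes an angiomotin, a junctional scaffold protein that binds YAP and restrains it. Its window held 6 TEAD peaks in WT, 16 at 3d and 20 at 7d, together with 7 YAP 7d peaks. As many TEAD 7d peaks or more were found in 127 of the 22367 protein-coding windows (0.568%), and as many YAP 7d peaks or more in 16 (0.0715%), counts that include neighbouring genes sharing the same peaks. All of the 7 YAP peaks had an Amotl2 start as their nearest start.

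The Amotl2 promoter site lay in the 5′ part of the gene, 16 bp past one of its 13 annotated starts and in an annotated UTR. TEAD pileups there were 176, 296 and 253, at ranks 31, 30 and 93, and the YAP 7d peak (chr9:102619878-102620252) had a pileup of 49 and rank 92. A second promoter site, 813 bp upstream of the first start, had no TEAD WT peak. Its TEAD pileup was 74 at 3d (rank 4064) and 145 at 7d (rank 1064), and its YAP pileup was 25. An intronic site 1849 bp upstream of an internal start had TEAD pileups of 135, 220 and 182 and a YAP pileup of 36, at rank 301.

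The remaining YAP peaks of Amotl2 were intergenic, past its 3′ end. The 2 nearest ones, 3561 and 5376 bp from a start, had YAP pileups of 25 and 24 and overlapped 1 broad TEAD 7d peak (pileup 201, rank 306), whose summit was 1802 bp and 13 bp from theirs. The site 33.0 kb from a start had the highest YAP pileup of any peak in the 10 windows, 51 (rank 76, fold enrichment 10.05). No TEAD WT peak lay under that YAP peak. TEAD there had a fold enrichment of 23.84 at 3d (pileup 161, rank 534) and of 54.39 at 7d (pileup 261, rank 74), the best TEAD 7d rank of the 10 genes. A WT peak of pileup 39 had its summit 735 bp away, and the 2 fell into 1 site only because a broad TEAD 7d peak covered both. The site 48.9 kb from a start was the eighth strongest TEAD peak of the WT list (pileup 270, rank 8). Its fold enrichment was 30.53 in WT, 37.24 at 3d (rank 13) and 43.36 at 7d (rank 80), and its YAP pileup was 48. Ranks come from lists of different length, and fold enrichments from lists of different fragment length and depth. Neither is read as a course from WT to 3d and 7d. The site lay 46.2 kb past the 3′ end of the gene, close to the edge of the window.

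Amotl1 and Amot, the other two angiomotins, had few and weak peaks. Amotl1 had 2 TEAD 3d peaks and 1 TEAD 7d peak, with pileups of 36, 38 and 25. One of them, intronic and 1581 bp past the start, was called at 3d only, and the other position, seen at both times, was 37 to 52 bp from the start of Cwc15, a neighbour. Amot had a TEAD 3d peak 37 bp upstream of its start (pileup 34, rank 19394) that was not called at 7d, and 4 intronic TEAD 7d peaks with pileups from 26 to 40. The 3 angiomotin genes therefore differed widely, from 20 TEAD 7d peaks at Amotl2 to 4 at Amot and 1 at Amotl1, although the Amotl1 window, at 201564 bp, was the longest of the set and that of Amotl2 measured 116747 bp.

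Nuak2 encodes a kinase of the AMPK-related family. It had 4 TEAD peaks in WT, 8 at 3d and 10 at 7d, and 2 YAP 7d peaks, neither of which lay at its promoter. The promoter site, 129 to 182 bp upstream of the start, had TEAD pileups of 73, 171 and 180 and ranks of 453, 424 and 522, with no YAP peak. The site 6.3 kb downstream of a start, 0.4 kb past the 3′ end of the gene, was stronger, with TEAD pileups of 85, 200 and 204 at ranks 276, 236 and 288. There the YAP 7d peak (chr1:134230289-134230617) had a pileup of 38 and rank 243. The second YAP peak (pileup 25, rank 1041) lay 27.8 kb from a Nuak2 start and nearer to Tmcc2, whose start was 9596 bp away. TEAD at that site had pileups of 32, 81 and 145 and fold enrichments of 4.04, 12.5 and 32.12 in WT, 3d and 7d. An intronic site had a fold enrichment of 4.8 in WT, 10.32 at 3d and 6.1 at 7d, with pileups of 40, 68 and 29.

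Axl, a receptor tyrosine kinase, had 5 TEAD 3d and 4 TEAD 7d peaks, with pileups from 25 to 46, and none in WT. No TEAD peak of the Axl window had an Axl start as its nearest start. The nearest starts belonged to Ccdc97, Hnrnpul1 and AC119211.1, and no peak lay at an Axl promoter.

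Tgfb2 encodes a TGF-beta ligand and F3 encodes tissue factor, the cell-surface initiator of coagulation. Tgfb2 had no TEAD WT peak, 5 at 3d and 8 at 7d. A group of intergenic sites 36.1 to 41.8 kb past its 3′ end stood out at 7d. The strongest of them had a TEAD pileup of 47 at 3d (rank 10243) and of 134 at 7d (rank 1336), and it overlapped the YAP 7d peak (chr1:188405141-188405520, pileup 23, rank 1249), the lowest-ranked YAP peak of the set. The next one had a TEAD pileup of 98 at 7d (rank 3001) and no peak at 3d. No Tgfb2 promoter peak was called in any list. F3 had 7 TEAD 3d peaks and 5 TEAD 7d peaks, with pileups of at most 53. Its YAP 7d peak (chr3:121439235-121439547, pileup 30, rank 588) lay 1.4 kb past the 3′ end, over the strongest TEAD peak of the window, which had pileups of 49 at 3d and 53 at 7d and ranks of 9400 and 9366. That was the weakest TEAD 7d peak with YAP among the 10 genes. The F3 promoter peak, 506 bp upstream, had pileups of 44 at 3d and 23 at 7d.

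Ankrd1 encodes an ankyrin-repeat protein of muscle that is a common reporter of YAP activity. It had no TEAD peak in WT, 4 at 3d and 8 at 7d, and no YAP peak. A promoter peak, 206 bp upstream of the start, was called at 7d only (pileup 43, rank 13073). The strongest peak lay 1.2 kb past the 3′ end, with a pileup of 43 at 3d (rank 12224) and of 96 at 7d (rank 3150). One peak of the window, at 36.3 kb, was 137 bp from the start of Rpp30.

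**Figure D2:**
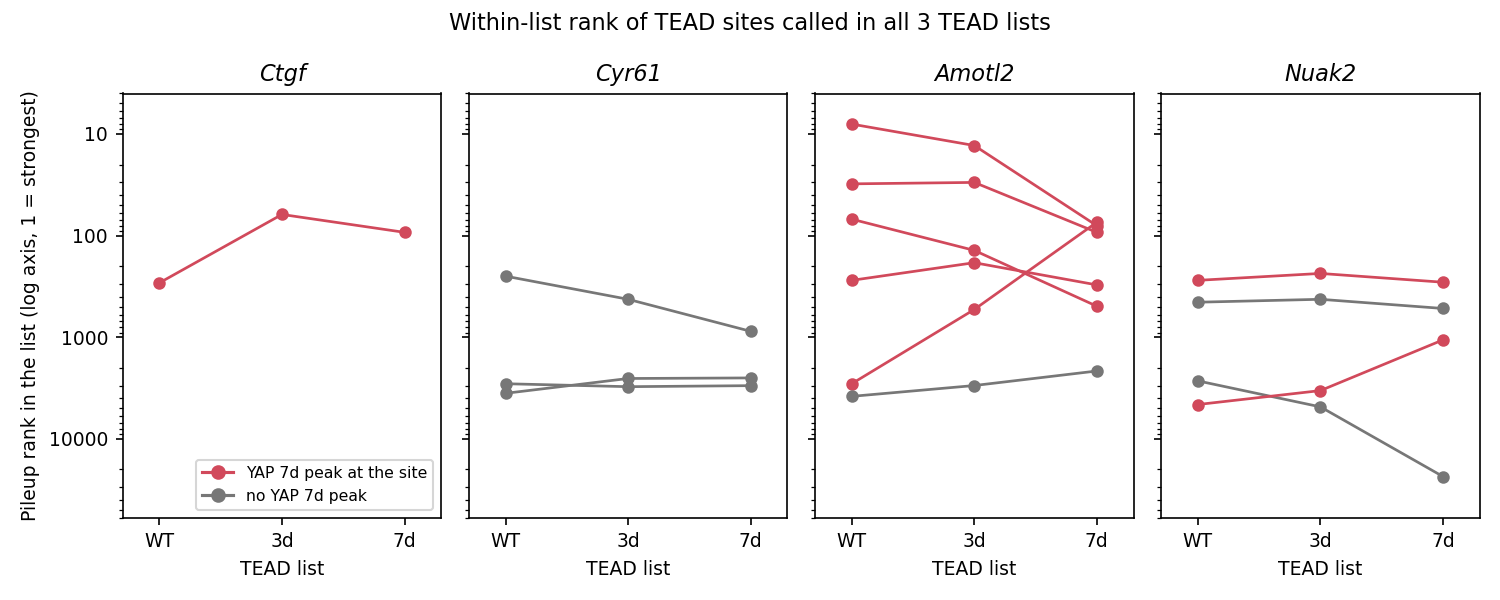
Pileup rank of the 14 TEAD sites that were called in all 3 TEAD lists, on a log axis with 1 as the strongest, for the 4 genes that had such sites. Lines join the strongest peak of a site in TEAD WT (of 5695), 3d (of 36446) and 7d (of 38984), and red marks the 8 sites that also hold a YAP 7d peak. The Ctgf promoter and 4 Amotl2 sites rank under 100 in at least 1 list, whereas no Cyr61 or Nuak2 site does. The lists differ in length, so a slope is not a change in binding. On the Amotl2 line that ends at rank 74, the WT summit lay 735 bp from the YAP 7d summit.

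When overlapping TEAD peaks of the 3 lists were joined into sites, the windows held 81 sites. Of these, 14 (17.3%, 95% interval 10.6 to 26.9) were called in all 3 lists, against 11.4% of the 47146 sites of the genome. A further 33 (40.7%) were called at 3d and 7d but not in WT, 25 (30.9%) at 7d only, 8 (9.88%) at 3d only and 1 in WT and at 3d. The genome held 46.1%, 23.7% and 18.2% of its sites in the first 3 of these classes. The intervals given here are Wilson intervals that cover counting error over peaks only. By peak, 16 of the 74 TEAD 7d peaks (21.6%, 13.8 to 32.3) overlapped a TEAD WT peak, against 14.1% of the list, and 15 of the 61 TEAD 3d peaks (24.6%, 15.5 to 36.7) did, against 15.5%. All 16 lay at Amotl2, Cyr61, Nuak2 and Ctgf.

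Peak strength was compared within lists. The median TEAD WT peak of the windows stood at 7.95% of the list from the top, with 8 of 15 in the top 10%. The median rested on Amotl2, because that of the 9 peaks of the other genes was at 47.3%, as in the whole list. The top 10% did not rest on Amotl2 alone. It also held the promoter peaks of Ctgf (5.13%), Cyr61 (4.41%) and Nuak2 (7.95%), and the Nuak2 site just past its 3′ end (4.85%). At 3d the median was at 47.5%, equal to the list's 47.5%, with 15 of 61 in the top 10%. At 7d it was at 33.5% against 49.9%, with 21 of 74 in the top 10%, and at 41.4% without Amotl2. The YAP 7d peaks had their median at 30.1% against 44.9%, with 4 of 12 in the top 10% and none in the top 1%.

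YAP 7d peaks lay mostly on strong TEAD 7d sites of these genes. Of the 74 TEAD 7d peaks, 11 (14.9%, 8.51 to 24.7) overlapped a YAP 7d peak, against 3.58% of the list. The 11 peaks with YAP had TEAD pileups from 53 to 261 (median 201), and the 63 without had pileups from 19 to 180 (median 35.0). The ranges overlap, but the 7 strongest TEAD peaks of the windows at 7d all had YAP. To compare strong peaks only, peaks of rank 1000 or better were counted, a limit chosen after the values were seen. Of the 10 such peaks in the windows, 7 (70.0%, 39.7 to 89.2) had YAP, and 57.7% of all 1018 such peaks did, these 10 included. The share of all such peaks lay within the interval, which is wide at 10 peaks. Peaks were not matched for rank above the limit. The 3 without YAP were the promoters of Nuak2 and Cyr61 and the Cyr61 site at 16.9 kb. Without Amotl2, 5 of 54 TEAD 7d peaks (9.26%) had YAP.

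**Figure D3:**
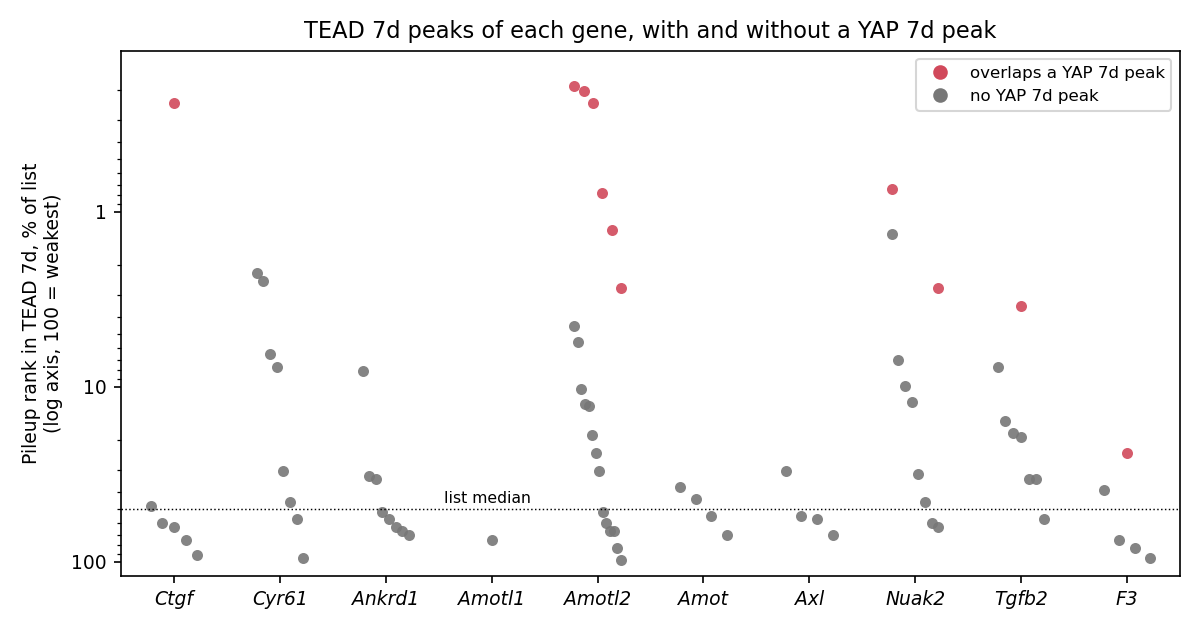
Pileup rank of each of the 74 TEAD 7d peaks as a percentage of the list, on a log axis with the strongest at the top, by gene. Red points overlap a YAP 7d peak and grey points do not, and the dotted line is the median rank of the list. The topmost point is red in Ctgf, Amotl2, Nuak2, Tgfb2 and F3, while all Cyr61 points are grey, the top ones at ranks 876 and 969.

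Each of the 12 YAP 7d peaks overlapped a TEAD 3d peak and a TEAD 7d peak, and 7 of them (58.3%, 32.0 to 80.7) also overlapped a TEAD WT peak, against 54.8% of all YAP 7d peaks. The 5 without TEAD in WT were 3 at Amotl2, 1 at Tgfb2 and 1 at F3. In position, 2 of the 12 lay upstream of their gene, 2 inside it and 8 past its 3′ end, and 5 were over 10 kb from a start of the gene. Several of the 8 were at Amotl2, and these positions were not counted over all YAP 7d peaks. Of the 14 TEAD sites called in all 3 lists, 8 (57.1%, 32.6 to 78.6) held a YAP 7d peak, and 750 of the 5366 such sites in the genome did. Of the 8 sites, 5 were at Amotl2, and without that gene 3 of 8 (37.5%) held YAP. The 5 include the site at 33.0 kb, where the TEAD WT summit lay 735 bp from that of YAP. Of the 33 sites called at 3d and 7d only, 3 did, against 2.39%. None of the 25 sites called at 7d only did, against 0.903%.

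TEAD enrichment was then compared between 3d and 7d at sites where exactly 1 peak of each list overlapped the other. Over all 26105 such pairs the median log2 ratio of fold enrichment, 7d over 3d, was 0.43, with quartiles of 0.14 and 0.72, and this shift of the whole list is the reference for the genes. The 41 pairs of the windows had a median of 0.64, with quartiles of 0.24 and 0.96, and 28 of them were above 0.43. By gene the median was 0.94 at Axl (3 pairs), 0.93 at Amotl2 (11), 0.82 at Nuak2 (8), 0.74 at Cyr61 (5), 0.70 at Ankrd1 (2), 0.67 at Tgfb2 (3), 0.42 at Ctgf (4) and 0.13 at F3 (4). The single Amotl1 pair had fold enrichments of 5.91 at 3d and 5.89 at 7d, and Amot had no pair. Sites where 1 peak overlapped several peaks of the other list were left out, so the medians by gene omit some main sites. Among these were the strongest Ankrd1 site (fold enrichment 7.06 at 3d, 22.62 at 7d) and the Tgfb2 site with YAP (6.79, 29.05). At Amotl2 they included the promoter site (48.59, 59.62) and the site at 33.0 kb (23.84, 54.39). The Ctgf promoter had a log2 ratio of 0.33, the Cyr61 promoter 0.38 and the Nuak2 promoter 0.73, higher than at 41.4%, 45.7% and 75.6% of all pairs, so the former 2 lay below the shift of the whole list. The largest value, 2.41, was at an Amotl2 site 40.7 kb from a start without YAP, where fold enrichment was 5.42 at 3d and 28.75 at 7d, higher than at 99.7% of all pairs. The lowest, -0.76, was at the intronic Nuak2 site 1008 bp past a start, with 10.32 and 6.1, higher than at 0.276% of all pairs.

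**Figure D4:**
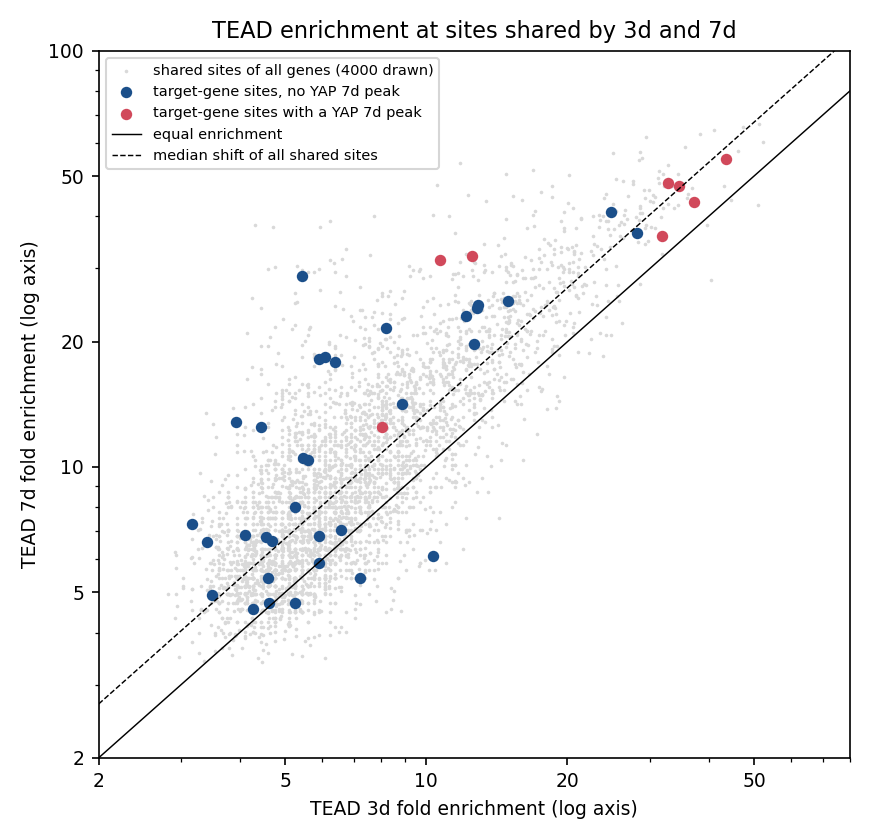
TEAD fold enrichment at 3d and 7d at shared sites, both on log axes, for the 41 pairs of the 10 windows (blue without and red with a YAP 7d peak) and for 4000 of the 26105 pairs of the genome (grey). The solid line marks equal enrichment and the dashed line the median log2 shift of 0.43, above which 28 of the 41 pairs lie.

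The TEAD motif CATTCC, on either strand and within 100 bp of the summit, was held by a larger share of peaks at these genes than in each list at large. The list's share lay outside the interval in TEAD 3d and 7d only. These are not separate results, since 49 of the 74 TEAD 7d peaks overlapped a TEAD 3d peak. The intervals also take peaks of the same gene as independent. The motif was found at 9 of 15 TEAD WT peaks (60.0%, 35.7 to 80.2), against 48.6% of the list. At 3d it was found at 29 of 61 (47.5%, 35.5 to 59.8), against 30.4%, and at 7d at 38 of 74 (51.4%, 40.2 to 62.4), against 35.2%. Amotl2 alone held 10 of the 29, among its 16 TEAD 3d peaks, and 11 of the 38, among its 20 TEAD 7d peaks. Intervals without Amotl2 were not computed, so the difference at 3d or 7d may rest on that gene. At YAP 7d peaks the motif was found at 8 of 12 (66.7%, 39.1 to 86.2), against 59.0%. The 4 YAP peaks without it were the intronic Amotl2 site, the Amotl2 site at 33.0 kb and the Tgfb2 and F3 sites. By strength, 14 of 21 TEAD 7d peaks in the top 10% of pileup held the motif (66.7%, against 61.5% of the list in that class), 12 of 24 between 10% and 50% (against 39.1%), and 12 of 29 in the lower 50% (41.4%, against 26.3%).

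Motifs of other factors were counted in the same window at TEAD 7d peaks. TGANTCA, the AP-1 motif, was found at 12 of 74 (16.2%, 9.53 to 26.2), against 8.71%, and 5 of the 12 were at Amotl2, 3 at Tgfb2 and 2 at Ctgf. It was found at 7 of the 61 TEAD 3d peaks (11.5%, 5.67 to 21.8), against 6.92% of the list. It was found at 0 of the 15 TEAD WT peaks (0 to 20.4%, against 7.04%) and 0 of the 12 YAP 7d peaks (0 to 24.2%, against 10.6%). The list's share lay within the interval in TEAD 3d, TEAD WT and YAP 7d, and outside it in TEAD 7d only. TGTTTAC, the FOXA motif, was found at 2 of 74 (2.70%), both at Amotl2, against 5.76%. TTGCNNCAA, the CEBP motif, was found at 1 (1.35%), also at Amotl2, against 1.99%. CAAAGTCCA, the HNF4 motif, was found at 0 of 74, against 1.69%, and at 1 of the 12 YAP 7d peaks, the Amotl2 site 3561 bp from a start. HNF4, FOXA and CEBP are factors of the hepatocyte, and at these counts the list's share lay within the interval of each.

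Another 14 genes of a published YAP and TAZ signature were counted in the same way. A TEAD peak lay in the window of 8 of 14 in WT, 12 at 3d and 13 at 7d, against 37.8%, 75.3% and 76.9% of all protein-coding genes, so the counts at 3d and 7d were near the background. Their windows add up to 3.68 Mb, of which that of Rbms3 alone is 1157168 bp. Fjx1 had no peak in any list. A YAP 7d peak lay in the window of 5 of 14, against 10.8%, and none in YAP WT or YAP 3d. That background was not matched for window length. Of the genes with a YAP peak, Asap1, Crim1, Ptpn14 and Myof had windows of 394379, 276345, 248428 and 244542 bp, and Igfbp3 one of 107838 bp. Crim1, a transmembrane protein that binds BMPs, had 2 YAP peaks, the stronger one intronic with a pileup of 53 and rank 65, over a TEAD 7d peak of rank 51. This stronger peak lay 122.6 kb from a Crim1 start, and its nearest start was that of AC103598.1. Myof, a membrane-repair protein, had 2 (best rank 520, with Cyp26a1 as the gene of the nearest start), Igfbp3, a binding protein of insulin-like growth factors, had 1 (rank 588), and Asap1, a regulator of ARF proteins, had 1 (rank 921). The Igfbp3 peak lay 27.7 kb from a start of the gene, in an exon of Gm11985, whose start was the nearest. The Asap1 peak was intronic, 291.3 kb from an Asap1 start, and the nearest start was that of Fam49b. Ptpn14, a phosphatase that restrains YAP, had 1 (rank 1149), 390 bp upstream of its start, the only promoter YAP peak of the 14. Lats2, the Hippo kinase gene, had a TEAD promoter peak in all 3 lists and no YAP peak. In density the 14 windows held 1.90 YAP 7d peaks per Mb, between the 8.99 of the 10 genes and the 0.548 of the genome.

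Genes with the promoter pattern of Ctgf, a promoter peak in TEAD WT, 3d, 7d and YAP 7d and none in YAP WT and YAP 3d, numbered 167 (0.747% of protein-coding genes), and Ctgf and Amotl2 were the 2 of the 10 genes among them. Likeness was the Euclidean distance between log10 rank fractions of the best promoter peak over these 4 lists. The nearest to Ctgf were Klhdc7a (0.42), Rnaseh2a (0.47) and Aup1 (0.53), and Amotl2 was at 1.02, in position 17. Klhdc7a had ranks of 372, 127, 159 and 76 in TEAD WT, 3d, 7d and YAP 7d, and Ctgf had 292, 62, 93 and 99.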

How the data were processed

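YAP and TEAD ChIP-seq was performed in 19 liver samples of 6 groups, taken from the sample labels. The authors aligned reads to mm9 with BWA 0.6.2, merged replicates, and called peaks with MACS2 2.0.9 at a p-value cutoff of 1e-05 against a control of 167176362 tags from earlier published data, per the file headers and the study's methods. Whether that control was a single library or a pool was not given in the sources used here. YAP samples were fixed with a protein crosslinker and formaldehyde, TEAD samples with formaldehyde only, and the TEAD antibody is reported to recognise several TEAD proteins. The deposited pileup is a signal, a count of extended fragments at the summit. The deposited fold enrichment is a ratio to the local background. The deposited −log10 p-values and −log10 q-values come from the caller.

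Peaks overlapping (1 bp or more) each gene body with 50 kb on either side were taken with GENCODE vM1 on NCBIM37, the assembly of mm9. All peak ends on the main chromosomes lay within the reference. Peaks were ranked by pileup within a list, motifs were searched in 100 bp on either side of summits, and shares carry 95% Wilson intervals. Functions were tested on simulated data. Python 3.11.15, pandas 2.3.3 and samtools 1.23.1 were used. The depth of each merged library limits which peaks could be called, and no p-value was computed because each group is 1 list.

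The members, gene lists, windows and alternatives were chosen with earlier results of these data known. The genes named are all 10 members with every YAP peak and, per TEAD list, the peaks of highest pileup and nearest to a start, signature genes with a YAP 7d peak, and the 3 genes most like Ctgf. Lats2 and Fjx1, the neighbours of weak peaks and further TEAD peaks were named after their values were seen. Alternatives covered the flank, the peak filters, the overlap rule, the rank measure, the promoter and the motif.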

Additional observations from a re-analysis of the deposited data

How the results depend on the processing

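Of 110 values recomputed under an alternative setting, 104 stayed within 1.5 times their value (counts and medians) or within their 95% interval (shares), and 6 did not. With 20 kb on either side in place of 50 kb, the windows held 9 TEAD WT, 33 TEAD 3d and 46 TEAD 7d peaks, and the median TEAD WT peak stood at 4.85% of its list. With peaks of at least 5-fold enrichment, 38 TEAD 3d peaks remained in the windows. With 200 bp on either side of the summit, 66.2% of the TEAD 7d peaks held CATTCC. The counts and the motif share follow from how the settings are built, since a shorter flank or a filter leaves fewer peaks and a wider window holds more sequence. For the median, the cause was not tested. YAP WT and YAP 3d had no peak in any setting tried, 100 kb on either side included. Only that wider flank could have added a peak to them. Their counts in the other settings were fixed in advance, and the 104 include them. No paired analysis was possible because the authors pooled the replicates ahead of peak calling, and for the same reason no replicate could be left out. Depth limits which weak sites were called in each list.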
